A study of Homo sapiens with 10 samples.

Results

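Respiratory complexes II to V are the enzymes of the inner mitochondrial membrane that carry electrons from succinate and ubiquinol to oxygen and use the resulting proton gradient to make ATP. Their nuclear-encoded genes were followed here in UT-SCC-12a, an established line from a human cutaneous squamous cell carcinoma, a cancer of skin keratinocytes. Members were the gene symbols of the array annotation that name succinate dehydrogenase subunits A to D or begin with UQCR, with COX and a digit from 4 to 8 or with ATP5, together with CYC1 and CYCS. Pseudogene symbols were left out, and where a symbol had several probe sets the brightest stood for it. This gave 49 genes of 29403 symbols tested: 4 of complex II, 10 of complex III, cytochrome c itself, 17 of complex IV and 17 of complex V. Stable lines made with lentiviral shMIMIC particles carried either miR-23b-3p or a scrambled RNA, and total RNA of 5 samples per group was labelled and hybridized to Affymetrix human gene arrays. Both groups are thus transduced lines of the same cells, and untransduced cells were not among the samples. Nothing in the labels tells whether separate cultures or clones stand behind the 5 samples of each group, so p-values here reflect the spread among arrays, which may be technical. The series title names RRAS2, a RAS-related GTPase, as the target of the microRNA.

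Complex II, succinate dehydrogenase, oxidises succinate in the citric acid cycle and passes the electrons to ubiquinone. Complex III hands electrons from ubiquinol to the soluble carrier cytochrome c, complex IV uses them to reduce oxygen, and complex V, the ATP synthase, lets protons flow back through a rotating ring of c subunits to drive the F1 head. Complex II is encoded by nuclear genes alone, whereas the other complexes join nuclear-encoded subunits with a few made inside the mitochondrion. Carcinoma cells rely on respiration and glycolysis to varying degrees, and nuclear genes of these complexes share activators such as NRF1, the ETS factor GABP and YY1.

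A microRNA recognises messages chiefly through its seed, bases 2 to 8 counted from the 5′ end. The mature sequences of the overexpressed microRNA and of its relatives miR-23a-3p and miR-23c, from RefSeq (GRCh38.p14), are shown because they carry the same seed, which is in capitals. The segment of hsa-miR-23b-3p lies at chr9:95085265-95085287 on the plus strand.
hsa-miR-23b-3p: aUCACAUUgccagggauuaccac
hsa-miR-23a-3p: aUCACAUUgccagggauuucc
hsa-miR-23c: aUCACAUUgccagugauuaccc

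All values are log2 expression values as deposited, differences are miR-23b-3p minus control, and SE stands for limma's moderated standard error. The probe set of the MIR23B hairpin read 6.43 ± 0.20 (SD, n = 5) with miR-23b-3p and 6.21 ± 0.22 in controls, a difference of 0.22 (SE 0.12, exact two-sided permutation p = 0.159). RRAS2 read 6.10 to 6.33 in the 5 overexpressing arrays and 6.34 to 6.49 in the 5 controls, a difference of -0.18 (SE 0.063, limma adjusted p = 0.665). Array medians lay between 3.14 and 3.19, and pairwise correlations across probe sets within a group ran from r = 0.991 to 0.994. Of 48144 probe sets tested with limma, 9 passed an adjusted p of 0.05. The antigenomic probe sets, which match no human sequence, averaged 3.39, and their own means ran from 1.85 to 6.22, so a level near 3 is not told from background. Keratinocyte markers averaged 6.71, with TP63, KRT5, DSG3, SFN and CDH1 between 8.19 and 10.8 but KRT6A, KRT14, KRT17 and LGALS7 below 4. Marker lists of fibroblasts, endothelium, blood, melanocytes and muscle averaged between 2.93 and 3.71, and none of their genes passed. The poly-A spikes, RNAs added before labelling, read 5.35 ± 0.093 (SD, n = 5) with miR-23b-3p and 5.46 ± 0.020 in controls (exact two-sided permutation p = 0.0238). By array they read 5.34, 5.37, 5.36, 5.20 and 5.46 in overexpressing replicates 1 to 5 and 5.44 to 5.48 in controls. The spike level thus partly follows the group, and a fit cannot fully separate it from the group. Differences fitted with the spikes as a covariate are therefore not corrected estimates. The part of the spikes in the differences below was not tested. With the spikes as a covariate the difference of 12 members turned direction and that of another 26 moved by over 1.5 times, and these values are given beside the main ones for some members below. These counts include small shifts, because the ratio is large where a value is near 0. ATP5F1A, for example, moved 8.28 times from -0.004 to -0.033, and COX6C 31.8 times from -0.052 to -0.0016.

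No gene of complexes II to V passed the threshold in either direction: with limma 0 of the 49 had an adjusted p under 0.05, against 0.0187% of all tested probe sets (0.0145% lower and 0.00415% higher), and the lowest adjusted p among the members was 0.663. At an unadjusted p under 0.05 there were 4 members, 8.16% of them against 6.63% of all tested probe sets. UQCR10, SDHC and UQCRHL were the 3 on the lower side, where the background was 2.95%, and COX4I2 was on the higher side, where it was 3.67%. The 5 overexpressing arrays lay wholly below the 5 controls for SDHC and SDHB, 2 of 49 genes (4.08%), against 0.661% of all tested probe sets in that direction. No member lay wholly above, where the background was 0.685%, and both directions together made 1.35%. That share was larger among bright probe sets. Of the 2269 with a symbol and a mean of at least 8, 62 lay wholly below and 60 wholly above, together 5.38%. SDHC and SDHB averaged 7.42 and 5.72, under that level, and the share among all probe sets of their own level was not counted. A difference of at least 0.2 in size was seen in 5 of the 49 members, SDHC, SDHA, UQCR10, UQCRHL and COX4I2. Of all tested probe sets 8.97% reached it, 4320 of 48144. Among probe sets with a symbol and a mean of at least 8 it was 60 of 2269, and among the 11 members of that level 1. SDHA and COX4I2 were dim, with means of 4.87 and 4.08.

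The differences were small, and more members lay below 0 than above. Of the 49 members 35 were lower with miR-23b-3p, 71.4% against 48.8% of all tested probe sets, and their median difference was -0.034 against 0.002. Among the 2269 tested probe sets with a symbol and a mean of at least 8, 47.4% were lower and the median was 0.004. The within-group SD of single members had a median of 0.096, which is not the spread of a median over 49 genes. The mean of all 49 members per array had an SD (n = 5) of 0.0249 with miR-23b-3p and 0.0245 in controls. The groups differed in that mean by -0.030. The 95% interval of 45 members included 0. In 18 members the interval lay wholly within 0.2 of 0, which is a change of 1.15-fold, and in 48 it left out a change of 1.5-fold either way. SDHA was the exception, with an interval from -0.088 to 0.67. Leaving out an array in turn moved the median between -0.055 and -0.020 and the number of lower members between 29 and 38. The median was nearest to 0 without overexpressing replicate 2 and farthest from it without control replicate 2.

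**Figure D1:**
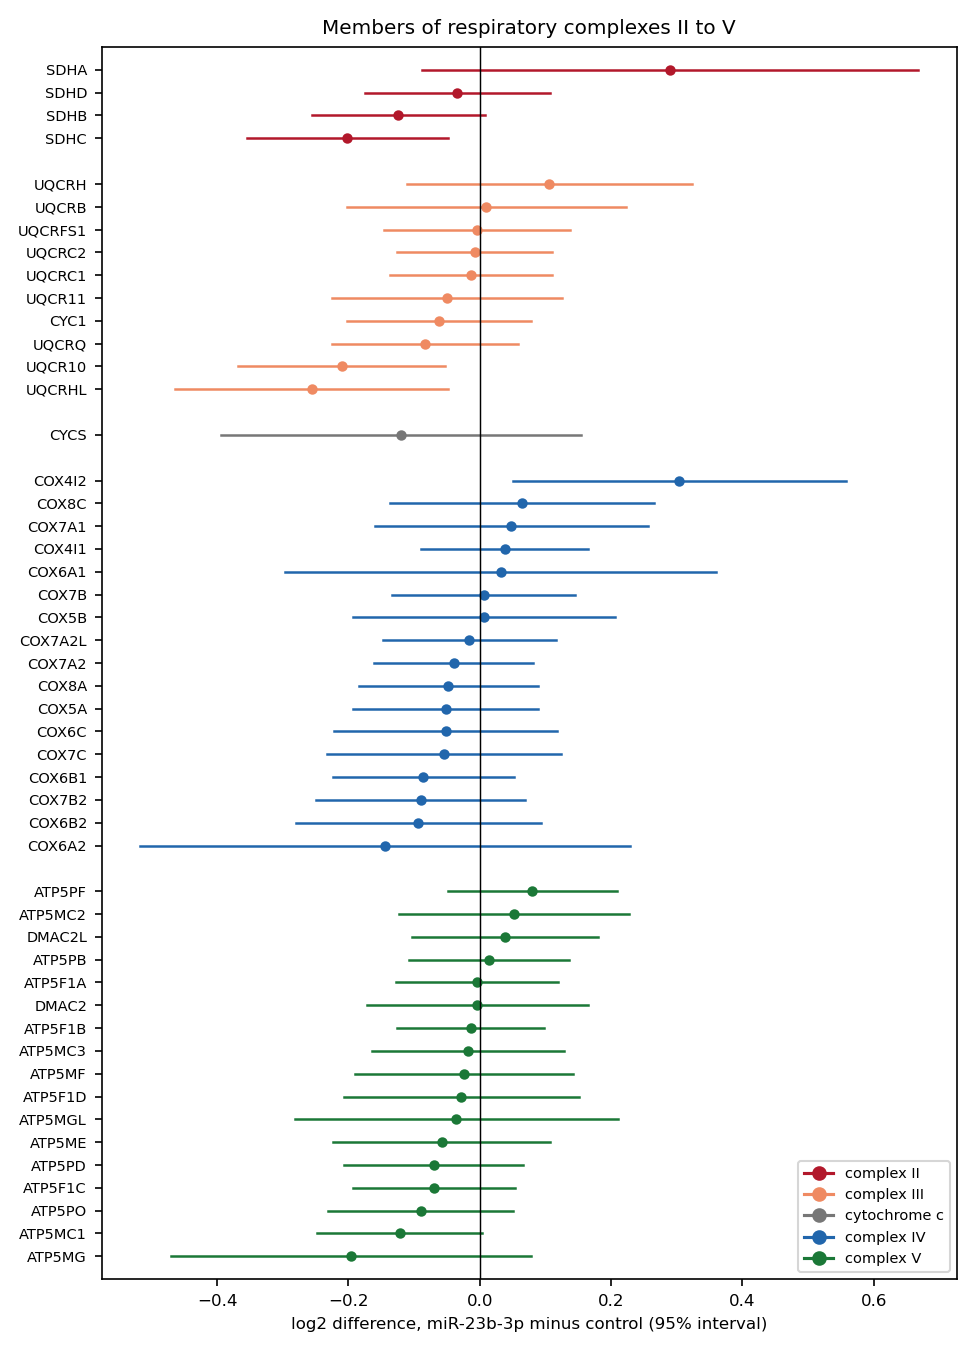
Log2 difference, miR-23b-3p minus control, of each of the 49 members with its 95% interval from limma, ordered within complex II, complex III, cytochrome c, complex IV and complex V. Most points lie slightly left of 0, from -0.256 in UQCRHL to 0.304 in COX4I2, and 45 intervals cross 0.

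Lower members were also counted by level, and the levels were not tested against each other. Of the 11 members with a mean of at least 8, 9 were lower, with a median of -0.048, and of the 24 with a mean from 5 to 8, 19 were lower, with a median of -0.031. The 14 members with a mean under 5 were evenly divided, 7 lower and 7 higher, with a median of -0.002. Of these dim members 6 had a mean below the average of the antigenomic probe sets.

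**Figure D2:**
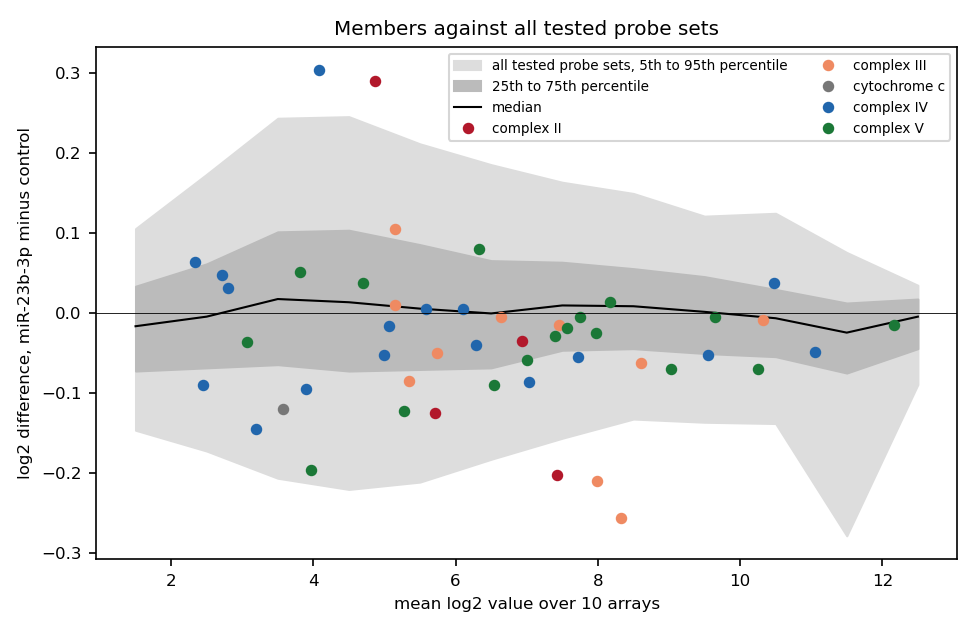
Log2 difference against mean log2 value over 10 arrays for the 49 members, coloured by complex, over the median and the percentile bands of all tested probe sets in bins of 1 log2 unit (bins under 20 probe sets are not drawn). Members with a mean of at least 8 lie mostly just below 0 (9 of 11). SDHC, UQCR10 and UQCRHL lie below the lighter band, and SDHA and COX4I2 lie above it.

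Averaged over all 49 members per array, the deviation from the mean of all arrays was 0.054, -0.010, 0.0019, 0.022 and 0.0084 in control replicates 1 to 5. In overexpressing replicates 1 to 5 it was -0.011, -0.035, -0.040, -0.013 and 0.023. Control replicate 1 was the highest and overexpressing replicate 3 the lowest, and the groups overlapped, because overexpressing replicate 5 lay above 4 of the controls. Over the 11 members with a mean of at least 8 the controls lay between 0.0025 and 0.063 and the overexpressing arrays between -0.057 and -0.0047, without overlap. The gap was narrow, between control replicate 3 at 0.0025 and overexpressing replicate 5 at -0.0047. Taken singly, 0 of these 11 members were without overlap. UQCR10, with a mean of 7.99, fell just under the cut, and other bright genes were not averaged in this way. Each complex taken alone overlapped between the groups.

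**Figure D3:**
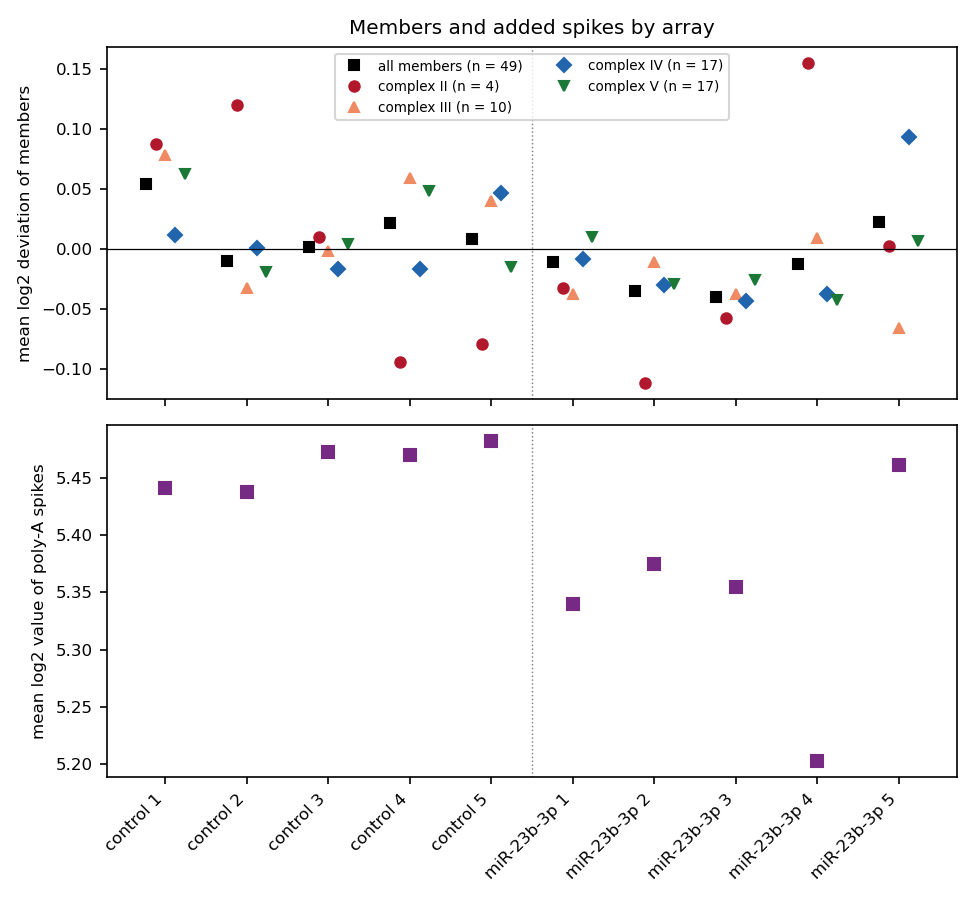
Upper panel: mean log2 deviation of the members from their mean over 10 arrays, for all 49 and for each complex, in each array. Lower panel: mean log2 value of the poly-A spikes in the same arrays. The black squares of the groups overlap, with overexpressing replicate 5 at 0.023, and the spikes are lowest in overexpressing replicate 4, at 5.20.

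Complex II showed its membrane anchor SDHC and its iron-sulphur subunit SDHB lower, the flavoprotein SDHA higher with a wide spread, and the other anchor, SDHD, close to 0. SDHC (hg19 chromosome 1, 161284047 to 161334541, plus strand), which holds the haem and the ubiquinone site together with SDHD, read 7.58, 7.57, 7.60, 7.44 and 7.43 in control replicates 1 to 5 and 7.41, 7.31, 7.15, 7.42 and 7.32 in overexpressing replicates 1 to 5. The groups did not overlap, though 0.01 parted overexpressing replicate 4 from control replicate 5. The difference was -0.20 (SE 0.071, 95% interval -0.36 to -0.049), 1.15-fold lower, with an exact two-sided permutation p of 0.00794, the smallest that 252 splits allow, and a limma adjusted p of 0.665. A second SDHC probe set (161337812 to 161341754) downstream on the same chromosome averaged 3.43, near the background, and differed by 0.034 (SE 0.092). The mean over both SDHC probe sets differed by -0.084.

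SDHB (chromosome 1, 17345217 to 17380665, minus strand) carries the electrons through its iron-sulphur clusters. It read 5.73, 5.85, 5.76, 5.80 and 5.75 in the controls and 5.62, 5.53, 5.69, 5.72 and 5.71 with miR-23b-3p. Every overexpressing array was below every control, again with a gap of 0.01 between the nearest 2. The difference was -0.12 (SE 0.061), 1.09-fold lower, with an exact two-sided permutation p of 0.00794 and a limma adjusted p of 0.766. In the authors' deposited table the signed fold changes are -1.09 for SDHB (p = 0.0157, q = 0.610) and -1.15 for SDHC (p = 0.00918, q = 0.544).

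SDHA (chromosome 5, 218356 to 256815, plus strand), which binds succinate, was read by 10 probes, the fewest of any member. Its values were 5.12, 5.11, 4.5, 4.35 and 4.53 in the controls and 4.91, 4.77, 4.93, 5.50 and 4.95 with miR-23b-3p. Control replicates 1 and 2 stood above 4 of the overexpressing arrays, and overexpressing replicate 4 stood above all others, so the groups overlapped. The difference of 0.29 (SE 0.17, exact two-sided permutation p = 0.167) was smaller than the SD of the controls, 0.37, and it was 0.17 without overexpressing replicate 4. With the poly-A spikes as a covariate it turned to -0.059. SDHD differed by -0.034 (SE 0.065, exact two-sided permutation p = 0.651), its controls spreading from 6.86 to 7.12 around all 5 overexpressing arrays, which read 6.87 to 6.97.

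**Figure D4:**
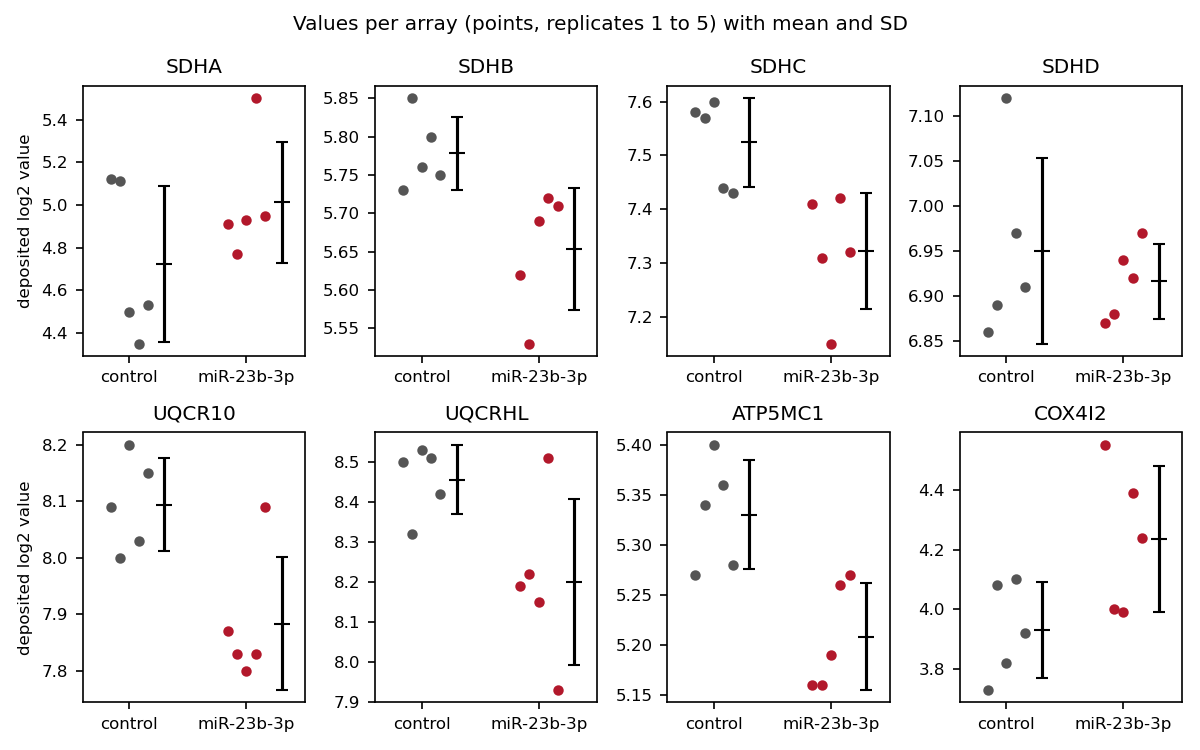
Deposited log2 values of 8 members in each array, as points for replicates 1 to 5, with the mean and SD (n = 5) beside them, each panel on its own axis. SDHB and SDHC are without overlap between the groups, UQCR10 and UQCRHL overlap through a single overexpressing array at 8.09 and 8.51, and SDHA is spread in both groups.

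In complex III the core subunits lay within 0.062 of 0. The small subunits, with the intronless copy UQCRHL, spread more widely and in both directions, from -0.26 in UQCRHL to 0.11 in UQCRH. Of the 10 members 8 were lower, with a median of -0.032. UQCR10 (chromosome 22, 30163352 to 30166402, plus strand), a small accessory subunit, read 8.09, 8.0, 8.20, 8.03 and 8.15 in the controls and 7.87, 7.83, 7.80, 7.83 and 8.09 with miR-23b-3p. Overexpressing replicates 1 to 4 lay below all controls and replicate 5 lay among them. The difference was -0.21 (SE 0.073, 95% interval -0.37 to -0.052), 1.16-fold lower, with an exact two-sided permutation p of 0.0317 and a limma adjusted p of 0.663. It was -0.26 without overexpressing replicate 5 and -0.11 with the spikes as a covariate.

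The symbol UQCRHL names an intronless copy of UQCRH, the hinge subunit that helps cytochrome c to dock. UQCRHL (chromosome 1, 16133657 to 16134194, minus strand) read 8.50, 8.32, 8.53, 8.51 and 8.42 in the controls and 8.19, 8.22, 8.15, 8.51 and 7.93 with miR-23b-3p. Overexpressing replicate 4 stood with the controls and the other 4 below them. The difference was -0.26 (SE 0.096, exact two-sided permutation p = 0.0397, limma adjusted p = 0.691), and -0.48 with the spikes as a covariate. UQCRH itself (chromosome 1, 46769303 to 46782448) differed by 0.11 (SE 0.10) in the other direction, and by 0.0044 with the same covariate. UQCRHL is the only member whose probe set the annotation marks as cross-hybridizing of type 3, the mixed class, so signal from the copy and from UQCRH cannot be told apart at that probe set.

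UQCRQ, a small subunit near the haem protein cytochrome b, differed by -0.084 (SE 0.065). The core subunits stood within 0.062 of 0. CYC1, the cytochrome c1 haem protein, read 8.57 ± 0.063 (SD, n = 5) against 8.63 ± 0.091, a difference of -0.062 (SE 0.065). UQCRC1 differed by -0.014 (SE 0.057), UQCRC2 by -0.008 (SE 0.054) and the Rieske iron-sulphur protein UQCRFS1 by -0.004 (SE 0.065). For UQCRC1 and UQCRC2, the 2 core scaffold proteins, the 95% intervals ran from -0.14 to 0.11 and from -0.13 to 0.11. The remaining members, UQCRB and UQCR11, differed by 0.010 and -0.050.

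CYCS, the somatic cytochrome c that shuttles electrons from complex III to complex IV, was read near background, at 3.52 ± 0.10 (SD, n = 5) with miR-23b-3p and 3.64 ± 0.31 in controls. Control values were 3.82, 3.26, 3.85, 3.91 and 3.36, and overexpressing values 3.52, 3.42, 3.42, 3.60 and 3.64. The overexpressing arrays lay inside the range of the controls. The difference of -0.12 (SE 0.13) had an exact two-sided permutation p of 0.429.

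Complex IV had 10 of its 17 members lower, with a median of -0.040. Among the 10 subunits found in most tissues 6 were lower, with a median of -0.044 and a range from -0.086 to 0.038. COX6B1, which lies on the outer face near the cytochrome c site, had the lowest p of these: it read 7.02, 7.06, 7.10, 7.12 and 7.07 in controls and 7.04, 6.91, 6.89, 6.97 and 7.13 with miR-23b-3p. Overexpressing replicate 5 was the highest of all 10 arrays, and the groups overlapped. The difference was -0.086 (SE 0.063, exact two-sided permutation p = 0.127).

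COX4I1, the regulatory subunit that binds ATP, differed by 0.038 (SE 0.058), and COX5A, its partner in early assembly, by -0.052 (SE 0.065). Both were bright: COX4I1 read 10.5 ± 0.077 (SD, n = 5) with miR-23b-3p and 10.5 ± 0.024 in controls, and COX5A 9.53 ± 0.11 and 9.58 ± 0.024. In COX5A, COX8A, COX4I1 and COX6B1 the overexpressing arrays spread more widely than the controls, with replicate 5 at the top of its group in each of the 4 genes. COX8A read 10.92 to 11.16 with miR-23b-3p and 11.03 to 11.17 in controls. Differences of COX5A and COX8A turned to 0.068 and 0.043 with the spikes as a covariate.

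The 6 tissue-restricted isoforms, known from lung, muscle, heart or testis, were dim, with means from 2.33 to 4.08, and 3 were lower and 3 higher. COX4I2, the isoform of subunit IV known from lung and from cells that sense oxygen, read 3.73, 4.08, 3.82, 4.10 and 3.92 in controls and 4.55, 4.0, 3.99, 4.39 and 4.24 with miR-23b-3p. Overexpressing replicates 1, 4 and 5 stood above every control and replicates 2 and 3 among them. The difference of 0.30 (SE 0.12), 1.23-fold higher, had an exact two-sided permutation p of 0.0635 and a limma adjusted p of 0.703. COX6A2 of heart and muscle differed by -0.14 (SE 0.17), and by 0.26 with the spikes as a covariate. The testis isoforms COX6B2, COX7B2 and COX8C differed by -0.094, -0.090 and 0.064, and the muscle isoform COX7A1 by 0.048. Muscle and heart markers averaged 3.50, and 3 of those 5 were lower and 2 higher.

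COX7A2L is known as a factor that joins complexes III and IV into supercomplexes. It differed by -0.016 (SE 0.061), and its dimmer second probe set by 0.092 (SE 0.086), so the sign depended on the probe set. COX6A1, whose protein is common in most tissues, read only 2.81 on average at its own 12 probes. The probe set of the copy COX6A1P2, which was left out by symbol and cross-hybridizes as type 3, read 11.4 and differed by 0.030 (SE 0.058). Whether that signal comes from COX6A1 messages was not tested. Of the other pseudogene symbols left out, UQCRBP1 read 3.08 and differed by -0.33 (SE 0.099, exact two-sided permutation p = 0.0159, limma adjusted p = 0.542), and ATP5F1EP2 read 2.86. ATP5F1E itself was not analysed here.

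Complex V had 13 of 17 members lower, the differences running from -0.196 to 0.080 with a median of -0.024. ATP5MC1 (chromosome 17, 46970127 to 46973233, plus strand) is a member of the trio of genes that encode the same c-ring subunit. It read 5.27, 5.34, 5.40, 5.36 and 5.28 in controls and 5.16, 5.16, 5.19, 5.26 and 5.27 with miR-23b-3p. The groups met at 5.27, shared by control replicate 1 and overexpressing replicate 5. The difference was -0.12 (SE 0.058), 1.09-fold lower, with an exact two-sided permutation p of 0.0159 and a limma adjusted p of 0.757. The other c-ring genes ATP5MC2 and ATP5MC3 differed by 0.052 and -0.018, so the lower reading was not seen at all 3 of them.

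ATP5MG, the g subunit of the membrane part, read 4.21, 4.23, 3.89, 4.16 and 3.87 in controls and 4.26, 4.01, 3.83, 3.69 and 3.59 with miR-23b-3p. Overexpressing replicate 1 was the highest of all arrays and replicates 3, 4 and 5 were below all controls. The difference was -0.20 (SE 0.13, exact two-sided permutation p = 0.206). ATP5PO, the stalk subunit that confers oligomycin sensitivity, read 6.5 ± 0.082 (SD, n = 5) against 6.59 ± 0.076, a difference of -0.090 (SE 0.065, exact two-sided permutation p = 0.135). The other membrane subunits, ATP5ME and ATP5MF, differed by -0.058 and -0.024.

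In the F1 head, where ATP is made, the differences lay close to 0. ATP5F1B, the catalytic beta subunit, was the brightest member and read 12.14 to 12.18 in overexpressing arrays and 12.16 to 12.18 in controls. Its difference was -0.014 (SE 0.051), with an interval from -0.13 to 0.097, and its deposited values, given to 2 decimals, leave few distinct levels. ATP5F1A, the alpha subunit, differed by -0.004 (SE 0.057), with 9.57 to 9.72 and 9.62 to 9.72 in the groups. ATP5F1D, the delta subunit, spread more widely, at 7.39 ± 0.12 (SD, n = 5) with miR-23b-3p and 7.42 ± 0.14 in controls, and differed by -0.028 (SE 0.082), or 0.077 with the spikes as a covariate. The 4 F1 members ran from -0.070 to -0.004, and the 4 stalk members ran from -0.090 to 0.080. DMAC2 and DMAC2L carry older ATP5 symbols on the array but encode no subunit: DMAC2 is known as an assembly factor of complex I, and DMAC2L as a coupling factor. They differed by -0.004 and 0.038, and the second probe set of DMAC2 by 0.038. Without these genes and the tissue-restricted isoforms, 31 of 41 members were lower, with a median of -0.036.

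Promoter windows from RefSeq (GRCh38.p14), 250 bases before to 50 after the transcription start, were matched for 36 of the 49 members and searched on both strands for 3 motifs. The YY1 motif AAGATGGCG was found in 3 of 36 (8.33%), ATP5PF, SDHB and UQCRC1, against 2.14% of 27305 genes. The ETS motif CCGGAAGT, bound by GABP, was found in 9 of 36 (25%) against 4.95%, and the NRF1 motif CGCATGCGC in 6 of 36 (16.7%), among them ATP5F1C and SDHD, against 2.34%. The NRF1 and YY1 motifs had been shortened after a first search of these members, so their shares cannot serve as an independent test. The 27305 genes were not matched to the members by expression level. In the windows printed no motif overlaps another, but the NRF1 motif matches both strands of SDHD 1 base apart, so its capitals cover 10 bases. SDHB, SDHD and COX5B are shown with their matches in capitals, SDHB as the gene of complex II without overlap between the groups for which a window was matched, SDHD for its NRF1 and ETS matches, and COX5B, chosen after its values were seen, for its pair of ETS matches. The SDHB window is chr1:17053983-17054282 on the minus strand, that of SDHD chr11:112086623-112086922 on the plus strand and that of COX5B chr2:97645812-97646111 on the plus strand.
SDHB: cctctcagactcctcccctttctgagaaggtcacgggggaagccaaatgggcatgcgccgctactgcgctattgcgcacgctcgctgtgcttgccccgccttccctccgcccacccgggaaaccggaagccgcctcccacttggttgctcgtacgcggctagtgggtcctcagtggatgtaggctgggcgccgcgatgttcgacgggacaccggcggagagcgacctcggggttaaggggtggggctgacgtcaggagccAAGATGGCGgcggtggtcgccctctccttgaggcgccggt
SDHD: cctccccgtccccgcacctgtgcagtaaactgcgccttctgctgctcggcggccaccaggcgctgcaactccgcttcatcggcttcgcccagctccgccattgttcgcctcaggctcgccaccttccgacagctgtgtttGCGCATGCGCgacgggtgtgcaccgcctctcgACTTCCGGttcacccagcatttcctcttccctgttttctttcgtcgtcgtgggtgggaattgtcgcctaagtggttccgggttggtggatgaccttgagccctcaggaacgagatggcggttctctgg
COX5B: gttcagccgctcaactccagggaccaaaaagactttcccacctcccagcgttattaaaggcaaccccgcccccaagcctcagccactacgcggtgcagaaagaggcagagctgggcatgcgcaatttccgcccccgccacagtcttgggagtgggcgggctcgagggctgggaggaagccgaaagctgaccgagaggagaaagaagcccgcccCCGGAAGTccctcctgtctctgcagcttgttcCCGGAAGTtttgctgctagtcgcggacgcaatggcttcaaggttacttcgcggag

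These matches describe letters in a window and no binding. Members that hold the YY1 motif had a median difference of -0.014 and the other 33 of -0.048. For the ETS motif the medians were -0.034 in the 9 holders and -0.052 in the 27 others, and for NRF1 -0.001 in the 6 holders and -0.049 in the 30 others. SDHB, with the YY1 match, differed by -0.12, SDHD, with the NRF1 match, by -0.034, and COX5B by 0.006 (SE 0.092), its arrays reading 5.41 to 5.71 with miR-23b-3p and 5.35 to 5.77 in controls. These medians were not tested against each other.

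Genes that build, regulate or surround these complexes were read from 9 lists with 92 distinct genes, DMAC2L included. None passed in either direction, 0 of 92 with limma, and at an unadjusted p under 0.05 there were 6 lower and 1 higher, where the shares of all tested probe sets were 2.95% and 3.67%. Of the 92, 68 were lower, with a median of -0.043, against 48.8% of all tested probe sets. In complex III assembly 7 of 9 genes were lower, with a median of -0.042. LYRM7, the chaperone that holds the Rieske protein UQCRFS1 in the matrix before it is inserted, read 6.30 to 6.57 with miR-23b-3p and 6.62 to 6.87 in controls, without overlap. Its difference was -0.28 (SE 0.077, limma adjusted p = 0.504), while UQCRFS1 differed by -0.004. VDAC1 and SUCLA2, given below, were also lower without overlap. Of all tested probe sets 0.661% were so, and of the 2269 with a symbol and a mean of at least 8, 62 were. UQCC2, which helps the synthesis of cytochrome b, differed by -0.18 (SE 0.076).

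For complex IV assembly 19 of 26 genes were lower, with a median of -0.051, led by the supercomplex factor HIGD2A at -0.20 (SE 0.069) and COA3, which stabilises newly made COX1, at -0.16 (SE 0.077). Complex II assembly was divided, 2 of 4 lower: SDHAF2, which attaches the flavin to SDHA, differed by 0.16 (SE 0.070) and SDHAF3, which serves SDHB, by -0.11 (SE 0.083). Complex V assembly was divided as well, 3 of 6, with ATPAF2, a chaperone of the alpha subunit, at 0.11 and TMEM242 at -0.098. The subunit ATP5MK and the haem lyase HCCS, which attaches haem to cytochrome c, differed by -0.11 and -0.036.

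All 4 mitochondrially encoded subunits measured were lower, with a median of -0.040 and means above 13: MT-CO2 differed by -0.070 (SE 0.060), MT-CYB by -0.048, MT-CO1 by -0.032 and the probe set named for MT-ATP8 by -0.030. That probe set spans bases 8366 to 9990 of the mitochondrial genome, so it may also read neighbouring genes. Nearly all probe sets this bright were lower. The bin of 1 log2 unit that starts at 13 holds 9 tested probe sets, these 4 subunits among them, with a median of -0.038 and a 95th percentile of -0.030. Of 13 genes listed for respiratory gene transcription and upkeep of mitochondrial DNA 10 were lower, with a median of -0.046. Among them were the mitochondrial DNA packaging factor TFAM at -0.13 (SE 0.063) and the mitochondrial DNA helicase TWNK at -0.17 (SE 0.082). Mitochondrial mass and import genes were lower in 11 of 13, with a median of -0.038. VDAC1, the pore of the outer membrane, read 8.92 to 8.98 with miR-23b-3p and 8.99 to 9.12 in controls, a difference of -0.10 (SE 0.055), and the import receptor TOMM22 differed by -0.16 (SE 0.068). In the citric acid cycle, which shares succinate dehydrogenase, 9 of 14 were lower, with a median of -0.032. SUCLA2, the succinyl-CoA ligase subunit that acts just before complex II, read 7.77 to 7.98 with miR-23b-3p and 8.01 to 8.10 in controls, a difference of -0.17 (SE 0.060, limma adjusted p = 0.665), and IDH3B differed by -0.13 (SE 0.060).

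A similar share of lower genes was seen outside complexes II to V. Among complex I subunits 29 of 36 were lower, with a median of -0.059. For mitochondrial ribosomal proteins it was 53 of 75, with a median of -0.030, and for cytosolic ribosomal proteins, which take no part in respiration, 54 of 76, with a median of -0.024. None of these 3 families held a gene past the threshold with limma, where 0.0187% of all tested probe sets did. At an unadjusted p under 0.05 they held 2, 5 and 0 genes, 5.56%, 6.67% and 0% of them against 6.63% of all tested probe sets. The share of lower members in complexes II to V, 71.4%, lies within the range of these families, from 70.7% to 80.6%, and no difference between them was tested.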

How the data were processed

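Total RNA of 10 samples was hybridized to Affymetrix human gene arrays, per the labels' protocols, and the titles gave each sample's group and replicate number. The log2 values were used as deposited, to 2 decimals; the submitters' processing notes name RMA and, without a version, Transcriptome Analysis Console. The authors' table gave signed linear fold changes, p-values and q-values, per the file headers, and symbols and hg19 coordinates (NetAffx build 36). Its fold ran overexpressing over control in 53617 of 53617 probe sets (relative tolerance 0.001). Its 10 columns of values per array match no sample label and were not used.

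Of these probe sets 48144 were tested and 5473 control and reporter probe sets left out. Differences were fitted with limma 3.58.1 (R 4.3.3), using every array, no covariate and no filter. P-values were adjusted by Benjamini-Hochberg across the tested probe sets, 0.05 was the threshold, and the fit was tested on simulated data. Exact permutation tests used all 252 splits into 5 and 5. Symbols were updated through RefSeq (GRCh38.p14) for 17 members. 48 members have probe sets of cross-hybridization type 1. No 2 arrays shared more than 2.16% of identical values.

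Members, lists and tests were chosen with earlier results of these data known. Named genes are the members with the 3 lowest p per complex, all of complex II, the core and catalytic subunits (COX4I1, COX5A, CYCS and ATP synthase alpha and beta included), tissue-restricted isoforms, non-subunits, members whose probe sets differ in sign (COX7A2L), members without overlap and the 2 lowest p of each list; others named with values (UQCRH, UQCRB, UQCR11, UQCRC2, COX5B, COX8A, COX6A1, MT-CO1, MT-ATP8 and the c-ring, F1 and membrane subunits) were added after their values were seen. The NRF1 and YY1 motifs were shortened by a letter after a first search, in which the longer NRF1 motif matched fewer members. Alternatives were a replicate block, the dimmest 25% left out, other normalizations, priors and tests, array weights, a poly-A spike covariate, other choices of probe sets and leaving out each array. The number of arrays limits the precision.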

Additional observations from a re-analysis of the deposited data

Results flagged for a closer look

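In 9 of the 98 sets of 5 arrays (49 members in 2 groups) the highest or lowest array stood apart from the other 4 by Dixon's ratio, the gap to its neighbour over the whole range, with a critical value of 0.71. Chance gives about 1 in 20 such sets.

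Overexpressing replicate 5 stood apart in 3 members. It read 8.09 for UQCR10 against 7.80 to 7.87 in the others (ratio 0.759), 7.70 for the c-ring gene ATP5MC3 against 7.51 to 7.55 (ratio 0.789) and 2.66 for the testis isoform COX8C against 2.23 to 2.35 (ratio 0.721). Overexpressing replicate 4 stood apart for SDHA, at 5.50 against 4.77 to 4.95 (ratio 0.753), and for COX7B, at 6.21 against 6.07 to 6.10 (ratio 0.786). Overexpressing replicate 1 read 3.49 for ATP5MGL against 2.84 to 3.01 (ratio 0.738). Among controls, replicate 3 read 5.28 for UQCRQ against 5.40 to 5.44 (ratio 0.750), replicate 1 read 11.17 for COX8A against 11.03 to 11.07 (ratio 0.714), and replicate 5 read 3.41 for COX6A1 against 2.55 to 2.72 (ratio 0.802). Of these genes COX8C, COX6A1 and ATP5MGL were read near background. Overexpressing replicates 4 and 5 also had the lowest and the highest poly-A spikes of their group, 5.20 and 5.46; their part in these values was not tested.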

How the results depend on the processing

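The count of members past the threshold was 0 under each of 22 alternatives, and the lowest adjusted p of any member under any of them was 0.379. The number of tested probe sets past the threshold, 9 in all, was 1 with the replicate block, 2 with the poly-A covariate, 39 with an intensity trend and a robust prior, and 5 to 8 when an array was left out. The median of the members lay between -0.050 (median centring) and -0.025 (poly-A covariate), and 31 to 39 members were lower, in the alternatives that kept all arrays. Same-numbered samples did not deviate together (correlations from -0.10 to 0.043, none highest with its own number), so the numbers are not taken as pairs, and the replicate block left 0 members past the threshold. The dimness filter and the restriction to cross-hybridization type 1 leave out a few members, which then have no value. Of the 49 members 25 kept their direction under every alternative, SDHC, SDHB, UQCR10, UQCRHL, COX4I2 and ATP5MC1 among them, and 24 turned in at least 1. With median centring UQCRB was -0.006, COX7B -0.010, COX5B -0.010 and ATP5PB -0.002. With renewed quantile normalization ATP5PB was -0.0018 and ATP5F1A 0.0022, and with array weights COX5B was -0.0033. The poly-A covariate turned SDHA to -0.059, COX6A2 to 0.26, COX5A to 0.068, COX8A to 0.043, COX7C to 0.012, COX7A1 to -0.027, COX7B to -0.058, ATP5F1D to 0.077, ATP5MGL to 0.037, ATP5MF to 0.059, ATP5MC3 to 0.045 and ATP5PB to -0.0032. Over all probe sets of a symbol COX7A2L was 0.038 and DMAC2 0.017. Leaving out an array turned UQCR11 (-0.083 to 0.007), UQCRC2 (-0.024 to 0.009), UQCRB (-0.059 to 0.066), UQCRFS1 (-0.044 to 0.025), COX7A2L (-0.043 to 0.007), ATP5F1D (-0.077 to 0.0095), ATP5MC3 (-0.053 to 0.022), DMAC2 (-0.057 to 0.038), COX5B (-0.053 to 0.052), ATP5MC2 (-0.003 to 0.1), SDHD (-0.057 to 0.0085), COX6A1 (-0.028 to 0.19), COX7B (-0.03 to 0.03), ATP5MGL (-0.15 to 0.017), ATP5PB (-0.001 to 0.033), ATP5F1A (-0.023 to 0.015), ATP5MF (-0.086 to 0.014), COX7A1 (-0.0005 to 0.12) and COX8C (-0.0095 to 0.10). The cause of these turns was not tested. Without turning, the poly-A covariate moved another 26 members by over 1.5 times, among them UQCRH to 0.0044, COX6B1 to -0.031, COX4I1 to 0.10, UQCR11 to -0.13, CYC1 to -0.028, COX6B2 to -0.22, COX8C to 0.19 and DMAC2L to 0.13. This ratio is large where either value is near 0, so the count includes small shifts.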
